A study of Mus musculus with 4 samples.

Results

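Histone modifying enzymes and chromatin readers were followed on 4 Affymetrix arrays of cytoplasmic RNA from Neuro2A cells, a mouse neuroblastoma line. The genes were taken by name: probe sets annotated to 1 gene whose symbol, current or older, begins with Kdm, Kmt, Setd, Hdac, Sirt, Ehmt, Suv3, Suv4, Prmt, Brd and a digit, or Kat and a digit, together with Zmynd8, Zmynd11, Ezh1, Ezh2, Eed, Suz12, Nsd1, Dot1l, Crebbp and Ep300. This gave 227 probe sets for 89 genes, out of 45037 probe sets on the arrays, of which 34945 named 1 gene. They comprised 45 writers, 36 erasers and 8 readers. After a filter on dim probe sets 160 probe sets and 84 genes were tested, namely 43 writers, 33 erasers and all 8 readers. The 5 genes that did not pass it were the erasers Hdac9, Kdm4d and Kdm5d and the writers Nsd1 and Prmt8.

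Both groups were Neuro2A cells of the same culture conditions, in DMEM and Ham's F12 medium with serum. In the knockdown group, with 2 arrays, endogenous 4.5SH RNA had been depleted with antisense oligonucleotides, transfected at 30 nM by lipofection. 4.5SH, a short rodent RNA that codes for no protein, resembles the B1 repeat in sequence. The control group also had 2 arrays. The labels do not name the oligonucleotide it received, so 4.5SH loss and other effects of the oligonucleotides cannot be told apart. The study's stated aim was to find target genes of 4.5SH that carry an antisense B1 element. The labels call the replicates biological without saying whether they were separate transfections, so every p-value below measures the spread between these arrays.

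Histones carry acetyl and methyl groups on their tails that mark active and silent chromatin. Writers add these groups: lysine acetyltransferases, lysine methyltransferases, most of them with a SET domain, and arginine methyltransferases. Erasers remove them: histone deacetylases, the NAD-dependent sirtuins and the lysine demethylases. Readers bind the marks, for example through a bromodomain, which recognises acetylated lysine. In neuronal and neuroblastoma cells many of these proteins help to set the balance between proliferation and differentiation, and several of the enzymes act mainly on proteins other than histones.

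The cells carried the RNAs of their labelled type, with exceptions. Of 14 neuroblastoma and neuronal markers with a probe set, 11 passed the filter, with signals of 1419.2 to 1630.8 for Hand2 and 3571.3 to 4038.4 for Stmn2 across the 4 arrays. Th, Gata3 and Nefl did not pass it, and Dbh had signals of only 10.5 to 36.5 and Mycn of 30.1 to 44.2. Of the 11, 2 were called higher in the knockdown, Elavl4 (log2 fold change 0.89) and Chgb (0.33). Another 3 were called lower, Gata2 (-0.45), Phox2a (-0.23) and Stmn2 (-0.17), and 6 were not called. Of 7 fibroblast and 6 glial markers with a probe set, 2 of each passed the filter and none was called. Of 6 blood and immune markers, 2 passed and both were lower in the knockdown. Their summed signal was 360 and 386 against 691 and 785 in the control, nearly all of it Cd68, while Ptprc stood at 0.3 to 8.1. Of 10 RNAs known to be kept in the nucleus 5 passed. Malat1 fell by 2.50 and Neat1 by 0.72 on the log2 scale, whereas Xist had a log2 fold change of 2.69. The list's summed signal was 345 and 339 against 571 and 559. The fibroblast (120 and 123 against 110 and 120) and glial (54.1 and 87.9 against 66.3 and 102) sums touched or overlapped between groups. The sums of the blood and nuclear RNA lists and of the neuroblastoma list (9190 and 9360 against 10000 and 10000) moved with the groups. So does the general shift described next, and the part of these lists and of the shift in the results below was not tested. In such bulk RNA, a smaller number of cells with a transcript and less of it per cell cannot be told apart.

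Most called histone enzymes and readers were lower after 4.5SH depletion, and a small set was higher. Among the 84 tested genes 36 fell (42.9%), 6 rose (7.14%) and 42 did not pass the test (limma, Benjamini-Hochberg adjusted p under 0.05 over all 11804 tested genes). The background on the same arrays was similar, since 35.2% of all tested genes were called lower and 9.79% higher. The median log2 fold change was -0.20 for the histone enzymes and readers and -0.16 for all tested genes. Here and below a gene is represented by its brightest tested probe set, and changes are knockdown minus control on the scale log2(signal + 16), which understates the change of dim genes. The 2 arrays of a group did not overlap those of the other for 62 of the 84 genes (73.8%), beside 71.2% of all tested genes. For 4 arrays in groups of 2 the smallest p of an exact permutation test is 0.333, and each call therefore relies on limma's pooling of variance across genes.

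The size of the downward shift of all genes depended on scaling. Quantile scaling makes the signal distributions of the arrays equal, and so can hide a shift shared by most genes. With quantile scaling the median of all tested genes was -0.04, and 17.7% of them were called higher and 22.6% lower. On that scale 18 of the 84 genes were called higher (21.4%) and 30 lower (35.7%), with a median of -0.04. Spike-in scaling instead gave a larger shift, with a median of -0.25 and 40.8% of all tested genes called lower and 6.14% higher. Of the 84 genes, 40 were then lower and 5 higher, with a median of -0.29. The all-gene median was -0.14 after median centring over all probe sets and -0.03 after median centring over tested probe sets. Of the 36 genes called lower on the deposited scale, 29 stayed so under quantile scaling, both median centrings and spike-in scaling. Hdac3, Hdac8, Kdm3a, Kat8, Kmt5c, Prmt6 and Prmt9 did not. Of the 6 higher genes, Zmynd11, Kat6b, Sirt1, Hdac11 and Ep300 stayed higher throughout, and Ezh2 did not. A further 12 genes were called higher with quantile scaling but not on the deposited scale. They were Hdac2, Kdm2b, Kdm5a, Kdm6b, Brd7, Crebbp, Kat6a, Kmt2a, Kmt2c, Kmt2e, Prmt5 and Suv39h2. Of these, Hdac2, Kdm6b, Crebbp, Kmt2e, Prmt5 and Suv39h2 were also called higher with median centring over tested probe sets.

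Each of the 3 classes, writers, erasers and readers, held more genes that fell than genes that rose. So did all tested genes, with 35.2% lower, 9.79% higher and a median of -0.16. Of 43 writers, 19 fell (44.2%) and 3 rose (6.98%), with a median of -0.20. Of 33 erasers, 14 fell (42.4%) and 2 rose (6.06%), with a median of -0.24. Of 8 readers, 3 fell (37.5%) and 1 rose (12.5%), with a median of -0.21. With quantile scaling the medians were -0.04, -0.06 and -0.04, beside -0.04 for all tested genes. A difference between the classes was not tested, because the genes of a class are not replicates. Changes of at least 2-fold on the log2(signal + 16) scale were found for 3 genes, the erasers Sirt3 and Sirt7 and the reader Zmynd11, and for 2.64% of all tested genes. When only the brightest 25% of probe sets were tested, 35 of 68 histone enzymes and readers fell and 5 rose, against a background of 47.9% lower and 12.6% higher.

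**Figure D1:**
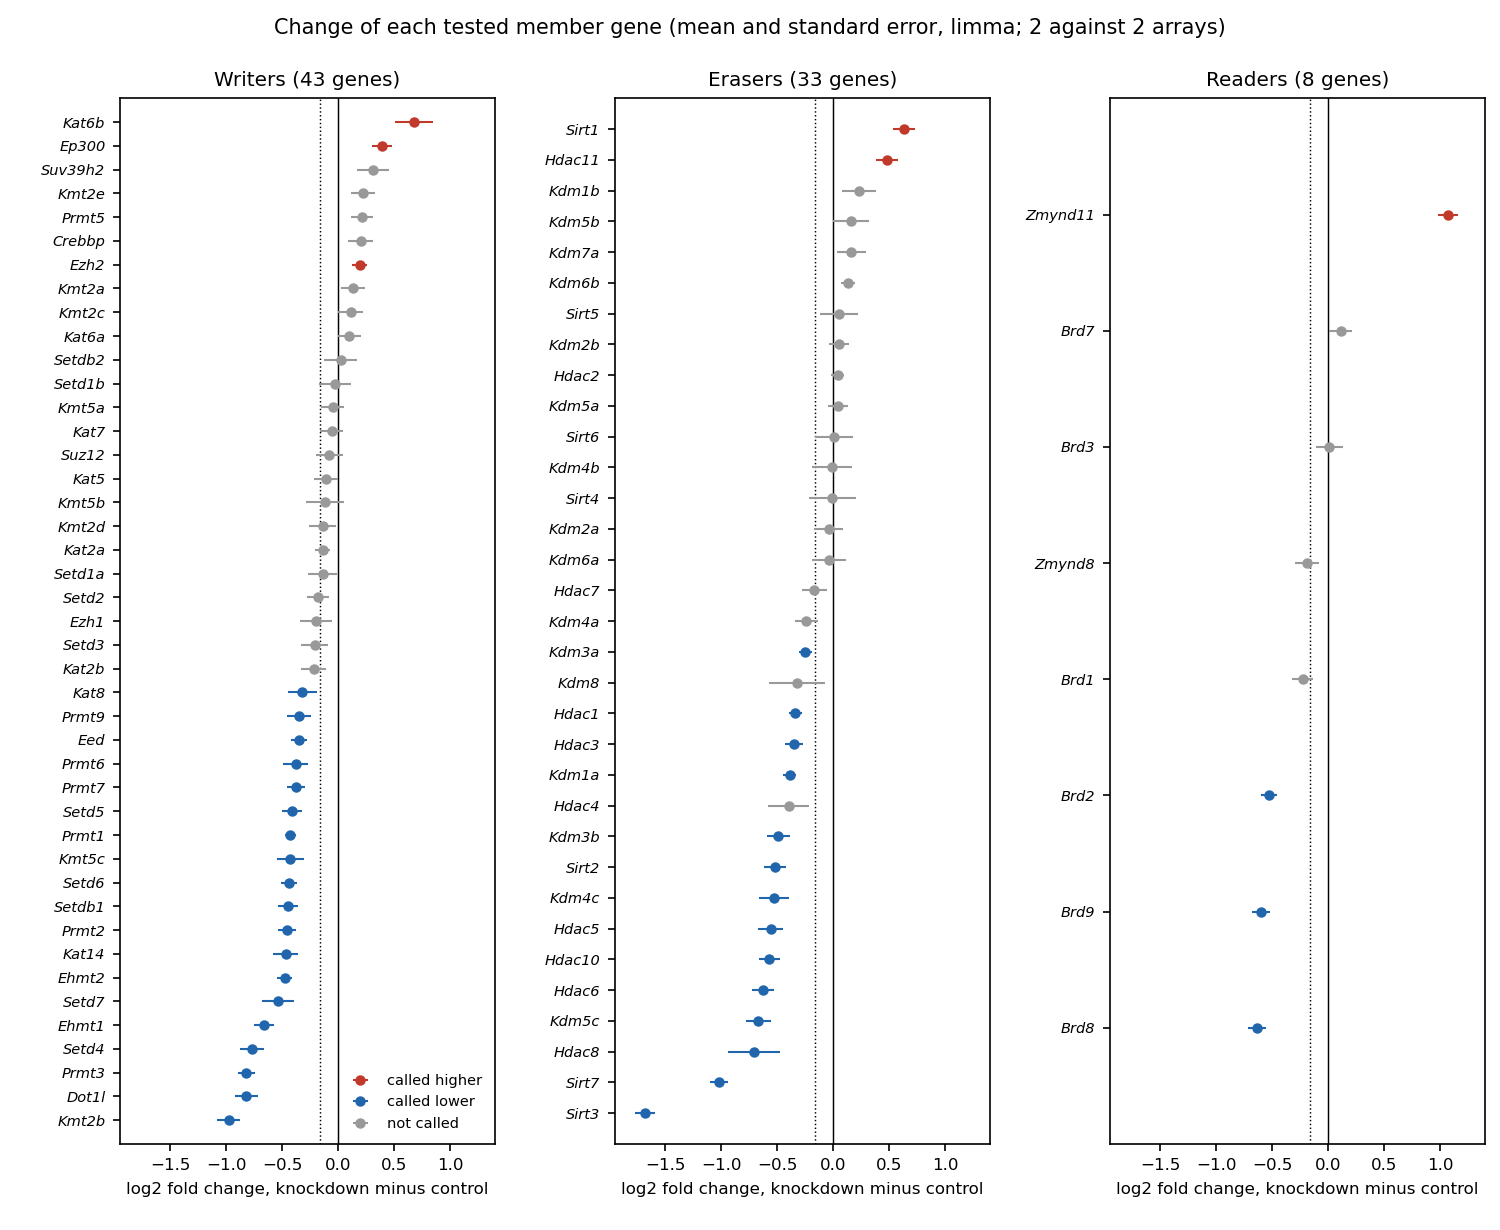
Log2 fold change (knockdown minus control, log2(signal + 16) scale) of the 84 tested genes in 3 panels, for writers, erasers and readers. Points are limma estimates from 2 against 2 arrays, bars their standard errors, and colour the call. The dotted line marks the median of all tested genes, -0.16. In each panel more genes are called lower than higher, as among all tested genes, and Sirt3 (-1.68) and Zmynd11 (1.07) lie farthest out.

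**Figure D2:**
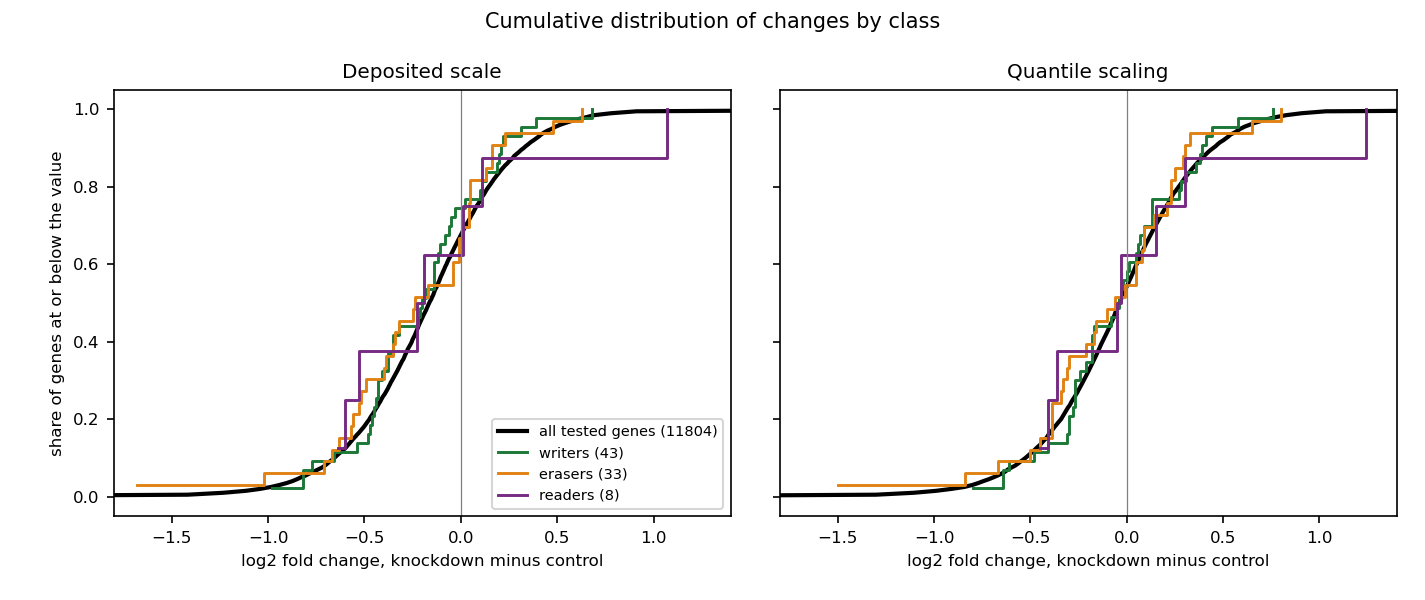
Cumulative share of genes (vertical axis) at or below each log2 fold change (horizontal axis) for all 11804 tested genes and for 43 writers, 33 erasers and 8 readers. The left panel uses the deposited scale and the right panel quantile scaling. On the left the medians of writers, erasers and readers are -0.20, -0.24 and -0.21. The coloured lines depart from the black line of all genes in places, among them that of the 8 readers, which rises in large steps. The black line moves to the right with quantile scaling, from a median of -0.16 to -0.04.

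Among the writers the largest change was in Kmt2b, which encodes a methyltransferase of lysine 4 of histone H3 (H3K4), a mark of active promoters. Its signal was 264.1 and 230.7 on the knockdown arrays against 529.2 and 477.8 on the control arrays. Both knockdown arrays were well below both control arrays. The log2 fold change was -0.98 ± 0.10 (SE, limma adjusted p = 6.03e-07). The group counted here for H3K4 held 6 tested methyltransferases, Kmt2a to Kmt2d, Setd1a and Setd1b. Of these Kmt2b alone was called, beside 35.2% lower and 9.79% higher among all tested genes. Values for the others ran from -0.14 for Kmt2d and Setd1a to 0.13 for Kmt2a, on either side of 0. Setd7 was not put in this group and is given below with the remaining SET domain proteins.

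Dot1l, the methyltransferase of H3 lysine 79 (H3K79) in transcribed genes, fell to a similar degree. It had signals of 243.0 and 231.8 against 463.9 and 399.5, so the groups did not overlap. The log2 fold change was -0.82 ± 0.10 (limma adjusted p = 4.8e-06). A second tested probe set for Dot1l also fell, by 1.00.

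Beside 35.2% of all tested genes called lower, the methyltransferases of H3 lysine 9 (H3K9), a mark of silenced chromatin, showed 3 of 5 tested genes lower. The partner enzymes GLP, encoded by Ehmt1, and G9a, encoded by Ehmt2, were both among them. Ehmt1 had signals of 307.8 and 300.0 against 526.5 and 457.3 (log2 fold change -0.66 ± 0.09, limma adjusted p = 2.23e-05). Ehmt2 had 696.6 and 740.1 against 1011.0 and 999.6 (-0.48 ± 0.07, limma adjusted p = 3.76e-05). Setdb1, which represses endogenous retroviral elements, had 343.9 and 399.3 against 526.7 and 498.7. Its control arrays were both above its knockdown arrays, and its log2 fold change was -0.45 ± 0.09 (limma adjusted p = 0.000753). All 3 stayed lower with quantile scaling. Suv39h2, a writer of trimethylated H3K9, was not called at 0.31 ± 0.14 (limma adjusted p = 0.0754), and neither was Setdb2 at 0.02.

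Polycomb repressive complex 2 writes the repressive methyl mark on H3 lysine 27 (H3K27), and its core genes did not move in a single direction. Eed, the subunit that binds the finished mark, had signals of 788.9 and 766.4 against 1002.4 and 992.9. It fell, with a log2 fold change of -0.35 ± 0.07 (limma adjusted p = 0.000516). Ezh2, the main catalytic subunit, had 2069.7 and 2369.7 against 2061.3 and 1828.7. The lower knockdown array and the higher control array of Ezh2 were almost level, and its call as higher (0.19 ± 0.07, limma adjusted p = 0.0379) was lost with spike-in scaling (0.10) and in the fit over all 22519 probe sets (limma adjusted p = 0.0644). It was also lost without knockdown replicate 2 (0.09, limma adjusted p = 0.415), without control replicate 2 (0.10, adjusted p = 0.247), with no filter (adjusted p = 0.168) and with no intensity trend (adjusted p = 0.253). Ezh1, the alternative catalytic subunit, had a value of -0.20 and was not called. Suz12, a structural subunit, was not called at -0.08 on its brightest probe set.

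Of the writers for H4 lysine 20 (H4K20) 1 of 3 fell, beside 35.2% of all tested genes. Kmt5c, which makes the trimethylated form in heterochromatin, had signals of 135.4 and 131.1 against 201.1 and 169.8 (log2 fold change -0.43 ± 0.12, limma adjusted p = 0.00894), and it was not called with quantile scaling (-0.28). Kmt5a, which makes the monomethylated form, and Kmt5b had values of -0.05 and -0.12. Setd2, the main writer of trimethylated H3 lysine 36 (H3K36), was not called at -0.18.

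Of the arginine methyltransferases 6 of 7 tested genes fell, and 4 of 7 were called lower with quantile scaling. The shares over all tested genes were 35.2% and 22.6%. The family is small, and its share was not tested against this background. Prmt3, a cytosolic enzyme that acts on a ribosomal protein, had the largest change. Its signal was 537.3 and 509.3 in the knockdown against 964.9 and 910.9 in the control. The arrays of a group lay close together and the groups far apart, and the log2 fold change was -0.82 ± 0.08 (limma adjusted p = 2.54e-07). Prmt1, the main enzyme for asymmetric arginine dimethylation, had 2898.3 and 2762.1 against 3915.2 and 3724.9. This drop was smaller but as clear, at -0.43 ± 0.05 (limma adjusted p = 3.59e-06). Prmt2 had 453.4 and 430.2 against 619.9 and 608.6 (-0.46 ± 0.08, limma adjusted p = 0.000192). Prmt6, Prmt7 and Prmt9 fell by 0.38, 0.38 and 0.35, and of these Prmt7 alone was also lower on every other scaling. Prmt5, which makes symmetric dimethylarginine, had higher signals in the knockdown, 443.5 and 508.7 against 381.4 and 437.5, and was not called (0.21 ± 0.10, limma adjusted p = 0.0877).

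Of the remaining SET domain proteins 4 of 6 tested genes fell, beside 35.2% of all tested genes. Setd4 had signals of 147.4 and 156.6 against 288.7 and 254.3 (log2 fold change -0.77 ± 0.11, limma adjusted p = 2.71e-05). Setd7, a methyltransferase with many targets outside chromatin, had 88.1 and 108.2 against 166.3 and 134.6. Its knockdown arrays were lower, but its call (-0.54 ± 0.14, limma adjusted p = 0.00496) was lost without knockdown replicate 1 (limma adjusted p = 0.0727). Setd6, which methylates the RelA subunit of NF-kappaB, and Setd5 fell by 0.44 and 0.41. Setd3, the methyltransferase of an actin histidine, was not called at -0.21.

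Of 10 tested acetyltransferases 2 rose, 2 fell and 6 did not pass, beside 9.79% higher and 35.2% lower among all tested genes. Ep300 encodes p300, which acetylates H3K27 at enhancers. Its signal was 431.3 and 398.2 in the knockdown against 309.9 and 313.7, so it was higher on both arrays. The log2 fold change was 0.39 ± 0.09 (limma adjusted p = 0.00211). Its paralog Crebbp was not called on its brightest probe set (246.6 and 253.4 against 229.3 and 202.7, 0.20 ± 0.11). Kat6b, the acetyltransferase MORF, had 80.7 and 95.6 against 42.7 and 55.6. It was dim but higher on both knockdown arrays, at 0.68 ± 0.17 (limma adjusted p = 0.0034), with the call lost without knockdown replicate 2 (limma adjusted p = 0.0534). Its paralog Kat6a was not called at 0.10. The genes that fell were Kat14, a subunit of the ATAC acetyltransferase complex (-0.47), and Kat8, the H4 lysine 16 acetyltransferase MOF (-0.32, limma adjusted p = 0.0484). Kat2a, Kat2b, Kat5 and Kat7 lay between -0.22 and -0.06 and were not called.

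Sirtuins held both the largest fall and a rise among the erasers. Sirt3, the main deacetylase of mitochondria, had signals of 175.9 and 176.2 on the knockdown arrays against 601.5 and 596.6 on the control arrays. Replicates were nearly identical and the groups were far apart. The log2 fold change was -1.68 ± 0.09 (limma adjusted p = 1.2e-09), a 3.40-fold drop in mean signal. Sirt7, a deacetylase of the nucleolus, had 395.4 and 367.9 against 802.2 and 780.2 (-1.02 ± 0.08, limma adjusted p = 5.28e-08). Sirt2, a mostly cytosolic tubulin deacetylase, had 258.0 and 247.1 against 358.8 and 380.2 (-0.52 ± 0.10, limma adjusted p = 0.000281). Sirt1, the nuclear deacetylase of p53 and of histones, went the other way. Its signal was 346.0 and 386.4 against 237.8 and 223.6 (0.63 ± 0.10, limma adjusted p = 7.03e-05). The remaining sirtuins, Sirt4, Sirt5 and Sirt6, had values of -0.01, 0.05 and 0.01 and were not called. Each call in the family was the same with quantile scaling, where the value was -1.50 for Sirt3, -0.84 for Sirt7, -0.34 for Sirt2 and 0.80 for Sirt1. Sirt1, Sirt2, Sirt3 and Sirt7 each rest on 1 probe set.

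The classical histone deacetylases were mostly lower, with Hdac11 the exception. In class I, whose members act in nuclear corepressor complexes, 3 of 4 genes fell, beside 35.2% of all tested genes. Hdac1 had signals of 1766.0 and 1817.0 against 2286.1 and 2247.0 (log2 fold change -0.34 ± 0.06, limma adjusted p = 0.000102). Its partner Hdac2 was not called, with 1807.3 and 1854.7 against 1846.5 and 1714.8 and overlapping groups (0.04 ± 0.06). Hdac3 had 490.7 and 488.2 against 665.9 and 589.9 (-0.35 ± 0.08, limma adjusted p = 0.00281), and was not called with quantile scaling (-0.16). Hdac8 lay near the floor at 18.3 and 23.2 against 55.8 and 34.0, and its call (-0.71 ± 0.23, limma adjusted p = 0.0175) was lost without control replicate 1 (-0.45) and without knockdown replicate 1 (-0.61).

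Both class IIb deacetylases fell, beside 35.2% of all tested genes. Hdac6, which removes acetyl groups from tubulin in the cytoplasm, had 248.3 and 266.7 against 424.4 and 391.8 (-0.63 ± 0.10, limma adjusted p = 4.35e-05). Hdac10, a polyamine deacetylase, had 330.6 and 348.1 against 540.1 and 482.1 (-0.57 ± 0.09, limma adjusted p = 7.55e-05). In class IIa, whose members shuttle between nucleus and cytoplasm, Hdac5 fell by 0.56, while Hdac4 (-0.40) and Hdac7 (-0.17) were not called. Hdac11, the sole class IV enzyme, had 309.7 and 337.1 against 229.1 and 225.8. It was higher on both knockdown arrays, at 0.48 ± 0.10 (limma adjusted p = 0.000867), whereas its other tested probe set was not called at 0.05.

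Among the demethylases 5 genes fell and none rose, and the largest change was in Kdm5c. By mark, 2 of 6 tested genes fell for H3K4, 3 of 5 for H3K9, 0 of 3 for H3K27 and 0 of 2 for H3K36. Each gene was counted under a single mark, Kdm4a to Kdm4c under H3K9 and Kdm2b under H3K4, whatever other marks its enzyme acts on. Of all tested genes 35.2% were called lower, and the demethylases were not tested as a group. Kdm5c, an X-linked demethylase of H3K4, had signals of 172.6 and 173.2 against 275.8 and 292.8 (log2 fold change -0.67 ± 0.11, limma adjusted p = 6.27e-05). Kdm1a, or LSD1, which removes methyl groups from H3K4 in the CoREST complex, had 1791.7 and 1865.8 against 2421.1 and 2369.5. It was lower on both arrays (-0.39 ± 0.06, limma adjusted p = 2.54e-05). The other H3K4 demethylases tested, Kdm1b, Kdm2b, Kdm5a and Kdm5b, lay between 0.04 and 0.23 and were not called. Of the H3K9 demethylases Kdm4c, Kdm3b and Kdm3a fell by 0.53, 0.49 and 0.25, and Kdm4a (-0.24) and Kdm4b (-0.01) were not called. None of the demethylases that act on H3K27 was called: Kdm6a, or UTX, had a value of -0.04, Kdm6b, or JMJD3, 0.13, and Kdm7a 0.16. Kdm2a, a demethylase of H3K36, and the dim Kdm8 were not called either.

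Among the readers, Zmynd11 had the highest value of the 84 genes. It encodes BS69, which binds trimethylated lysine 36 on the histone variant H3.3 and restrains transcription elongation. Its signal was 524.1 and 504.7 on the knockdown arrays, against 239.6 and 234.3 on the control arrays. Replicates were close together, and the knockdown arrays were more than double the control arrays. The log2 fold change was 1.07 ± 0.09 (limma adjusted p = 1.06e-07), or 1.24 with quantile scaling. Its relative Zmynd8 was not called at -0.19, with signals of 186.0 and 217.5 against 234.4 and 230.0.

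Of 6 tested bromodomain proteins named Brd, 3 fell and none rose, beside 35.2% lower and 9.79% higher among all tested genes. Brd2, a BET protein that binds acetylated histone H4, had signals of 1986.9 and 1900.4 against 3031.3 and 2609.9 (-0.53 ± 0.07, limma adjusted p = 5.18e-06). Brd8, a subunit of the TIP60 acetyltransferase complex, had 512.1 and 539.1 against 848.5 and 804.8 (-0.64 ± 0.08, limma adjusted p = 4.14e-06). Brd9, a subunit of a BAF remodelling complex, had 438.4 and 469.9 against 694.3 and 695.6 (-0.60 ± 0.08, limma adjusted p = 1.27e-05). In all 3 the groups were separate, and all 3 calls were the same with quantile scaling. The BET protein Brd3 (0.01), Brd7 of the PBAF remodelling complex (0.11) and Brd1 (-0.23, limma adjusted p = 0.0505) were not called.

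**Figure D3:**
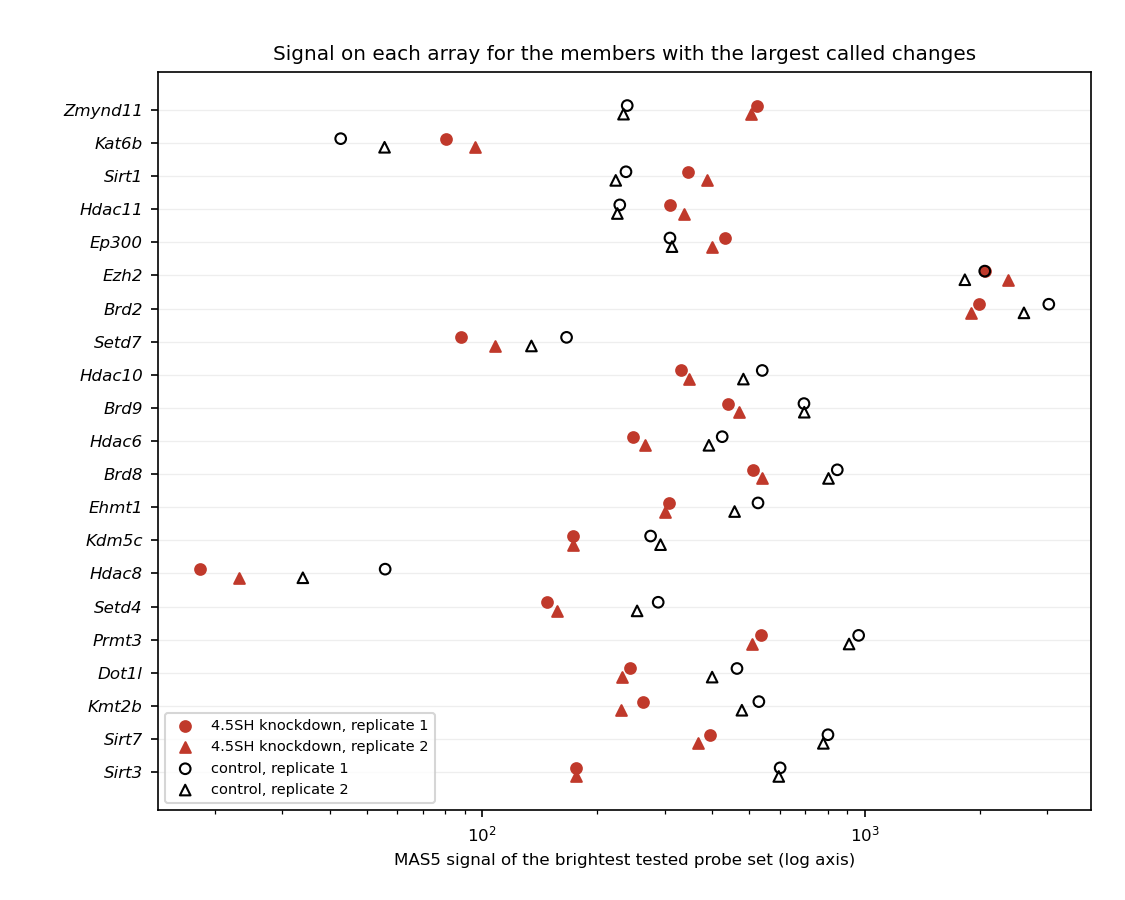
MAS5 signal (log axis) on each of the 4 arrays for called genes with large changes, 1 row per gene, on the brightest tested probe set. Filled red symbols are the knockdown arrays and open symbols the control arrays, circles for replicate 1 and triangles for replicate 2. The replicates of Sirt3 nearly coincide, at 175.9 and 176.2 against 601.5 and 596.6, whereas Ezh2 has a knockdown array at 2069.7 beside a control array at 2061.3. Signals of different rows come from different probe sets and are not comparable.

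Writers and erasers of the same mark were set side by side, in groups chosen with the values known. Each gene was counted under a single mark, and Setd7 was not among the H3K4 writers. Over all tested genes 35.2% were lower and 9.79% higher (median -0.16). With quantile scaling 22.6% were lower and 17.7% higher (median -0.04). The groups are small and were not tested against these shares. For H3K4, 1 of 6 writers and 2 of 6 erasers fell and none rose on the deposited scale, with medians of -0.09 and 0.05. With quantile scaling 2 H3K4 writers were higher and 1 lower (median 0.04), and 2 erasers higher and 2 lower (median 0.23). For H3K9, 3 of 5 writers and 3 of 5 erasers fell, with medians of -0.45 and -0.25. H3K27 had 1 writer higher and 1 lower of 4, and 0 of 3 erasers called, with medians of -0.14 and 0.13, and with quantile scaling 1 of these erasers was higher (median 0.29). With quantile scaling the H3K9 counts were 3 lower and 1 higher for writers and 2 lower for erasers, and the medians -0.27 and -0.10. Close relatives were often called differently: Ep300 rose and Crebbp was not called, Sirt1 rose and Sirt2, Sirt3 and Sirt7 fell, and Hdac1 fell while Hdac2 was not called. Whether such relatives differed in their change was not tested.

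Different probe sets of a gene did not always show the same change. At the level of probe sets, 15 of 160 were called higher and 51 lower, against a background of 9.73% higher and 25.8% lower over 22519 tested probe sets. Of the 84 genes 35 had a single tested probe set. Of the other 49, all probe sets were called in the same direction for 7, some were called and the rest not for 22, both directions were called for 1, and none was called for 19. Zmynd11 rose on all of its 3 probe sets, by 1.07, 1.14 and 0.94. Prmt3 fell on 3 of 4, and Dot1l, Kdm1a, Kdm3b, Prmt2 and Setd6 fell on both of theirs.

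Brd8 was the gene called in both directions. It fell on 3 of 5 probe sets, and a dimmer one had signals of 54.8 and 63.0 against 33.0 and 40.1 and was called higher (0.51 ± 0.18, limma adjusted p = 0.0412). Kmt2e, or MLL5, was not called on its brightest probe set (0.22), yet 3 of its 5 probe sets rose. The largest of these had 166.6 and 153.3 against 71.2 and 63.4 (1.08 ± 0.14, limma adjusted p = 4.43e-05). Suz12 likewise was not called on its brightest probe set and was higher on 2 others, by 0.67 and 0.32.

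Crebbp showed the reverse, with a second probe set lower. This probe set had signals of 85.6 and 101.3 against 179.5 and 163.2 (-0.78 ± 0.13, limma adjusted p = 0.000478), beside 0.20 on the brightest. Kdm7a, Kat2a and Kat5 had lower calls on a dimmer probe set (-0.54, -0.53 and -0.45), Brd3 and Kmt2a had higher ones (0.59 and 0.47), and the 3 other probe sets of Kdm5c were not called. Averaging the probe sets of each gene ended the calls of Brd8 (-0.24), Eed (-0.14), Kdm5c (-0.23) and Setdb1 (-0.26). Probe sets of a gene can read different transcript ends or introns. Which part each of these read was not analysed here.

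**Figure D4:**
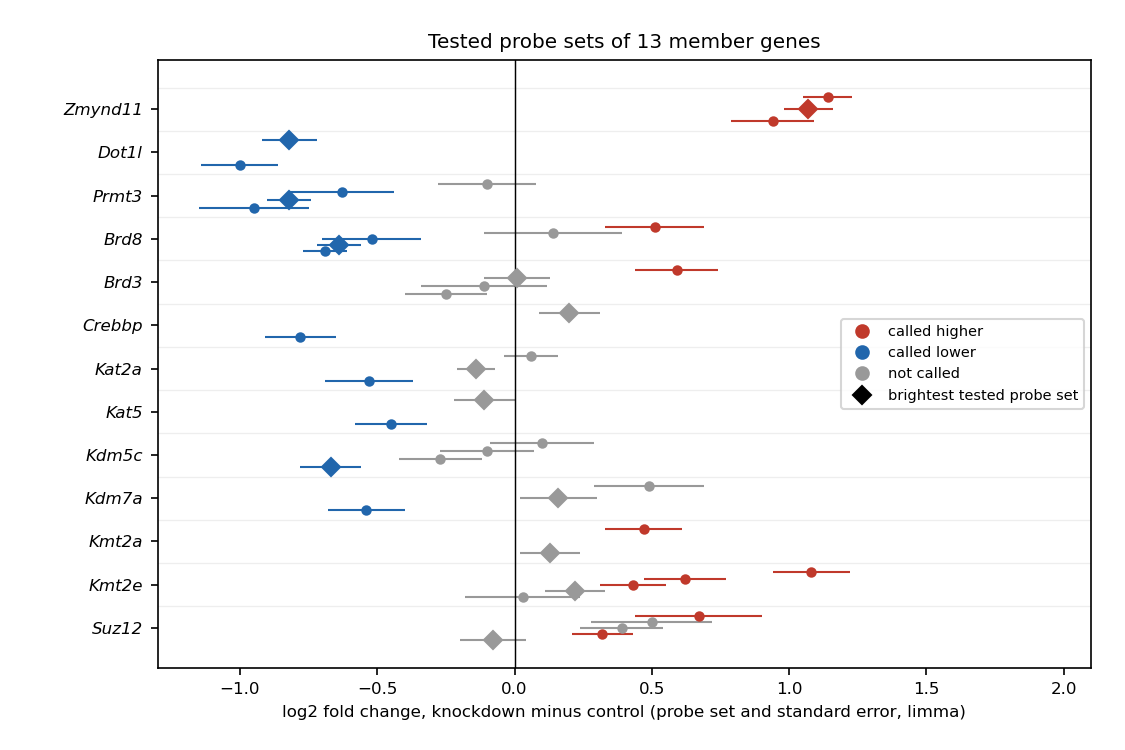
Log2 fold change (knockdown minus control) of every tested probe set of 13 genes, with limma standard errors as bars. Diamonds mark the brightest tested probe set and colour the call. The probe sets of Zmynd11 lie together between 0.94 and 1.14, while those of Crebbp (0.20 and -0.78) and Brd8 lie on both sides of 0.

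Other chromatin genes outside these name families gave similar shares. Of 173 tested genes in lists of further writers, erasers, readers and complex subunits, 71 were lower (41%), 16 higher (9.25%) and 86 not called, with a median of -0.19. By list, 11 of 32 further writers fell and 4 rose, 6 of 17 further erasers fell and 1 rose, 19 of 46 further readers fell and 4 rose, and 35 of 78 subunits fell and 7 rose. The largest values in each list were in Smyd2 (-0.65) among writers, Phf2 (-0.55) among erasers and Cbx7, a chromodomain reader of polycomb complexes (-1.62), and Bptf, the reader of the NURF complex (-1.46), among readers. Among subunits they were in Supt3 of the SAGA complex (-1.57) and Phc3 of polycomb complex 1 (-1.33).

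Promoters were examined for sequence features, with motifs chosen when the values were known. Of the 89 genes 75 had a RefSeq promoter window in the table used (GRCm38.p6), here the 250 bases before a transcription start, with 107 windows in all. The median number of CpG dinucleotides was 18 in these windows and 10 in all windows of protein-coding genes, and the median GC content 62.0% against 55.6%. All windows include those of genes not tested here, and CpG and GC content were not compared over tested genes alone. The GC box GGGCGG was present in 58.9% of these windows against 42.6% of all windows, a wider gap than over tested genes, given next. Over both strands, the GC box GGGCGG was present for 69% of the tested genes with a window (63.4% of all tested genes), CCAAT for 45.1% (40.3%) and TATAAA for 2.82% (8.1%). The core motif of ETS factors, CGGAAG, was present for 29.6% against 28.7%. It was found in 15 of 30 genes that fell, 0 of 6 that rose and 6 of 35 not called. Among all tested genes it was found in 30.8% of those called lower, 29.2% of those called higher and 27.2% of those not called. These are matches of letters, given as a description without a test. A GC box and an ETS core overlapped in 1 window.

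The following windows show genes of both directions. They were taken from the 9 windows of called genes that lie outside every annotated gene, and matches to the 4 motifs on either strand are in capitals. Setdb1 (chr3:95357203-95357452, minus strand) fell and has 2 ETS cores, Prmt2 (chr10:76237866-76238115, minus strand) fell and has 1. Prmt1 (chr7:44986421-44986670, minus strand) fell and has none, but 4 GC boxes and 3 CCAAT boxes. Sirt1 (chr10:63339036-63339285, minus strand) rose and has 6 GC boxes, overlapping matches counted. The windows of the 9 that are not shown belong to Eed, Hdac5, Kat8, Kdm4c and Prmt6. These genes all fell, and none of these windows has an ETS core, so the windows shown over-represent that motif. Sequences are 5′ to 3′ on the gene's strand.
Setdb1: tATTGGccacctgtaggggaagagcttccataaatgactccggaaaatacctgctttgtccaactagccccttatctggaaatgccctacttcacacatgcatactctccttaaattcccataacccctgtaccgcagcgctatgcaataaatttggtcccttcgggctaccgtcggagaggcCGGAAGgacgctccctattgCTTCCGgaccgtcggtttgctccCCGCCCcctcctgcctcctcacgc
Prmt2: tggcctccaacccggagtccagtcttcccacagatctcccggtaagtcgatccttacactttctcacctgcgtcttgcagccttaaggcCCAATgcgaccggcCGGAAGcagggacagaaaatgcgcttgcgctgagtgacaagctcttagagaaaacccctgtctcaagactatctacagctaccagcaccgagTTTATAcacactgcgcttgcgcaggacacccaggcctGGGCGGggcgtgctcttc
Prmt1: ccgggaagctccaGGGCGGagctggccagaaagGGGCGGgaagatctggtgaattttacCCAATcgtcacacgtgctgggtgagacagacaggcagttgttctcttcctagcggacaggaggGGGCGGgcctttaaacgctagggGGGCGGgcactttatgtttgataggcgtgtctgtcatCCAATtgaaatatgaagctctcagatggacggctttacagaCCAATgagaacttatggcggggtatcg
Sirt1: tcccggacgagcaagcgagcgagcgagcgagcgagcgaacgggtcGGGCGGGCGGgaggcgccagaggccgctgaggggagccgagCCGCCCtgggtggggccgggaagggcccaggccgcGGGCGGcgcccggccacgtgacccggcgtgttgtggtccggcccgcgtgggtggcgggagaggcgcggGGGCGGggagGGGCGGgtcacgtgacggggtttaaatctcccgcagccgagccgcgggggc
Setdb1 and Prmt2 carry their ETS cores, CGGAAG or its reverse complement CTTCCG, among the capitals, and the Sirt1 window, with 39 CpG dinucleotides, is the most GC-rich of the 4 at 79.2%.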

How the data were processed

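Cytoplasmic RNA of 4 samples was measured, 2 in each group. Cells were lysed in CSK buffer, the supernatant of a centrifugation was taken as cytoplasm, and 200 ng of poly(A)+ RNA went into each biotin-labelled cRNA, per the labels' protocols. The deposited values are MAS5 signal intensities on a linear scale, 1 per probe set, per the submitters' processing notes, which give no version. Their scaling target is unknown: 2% trimmed means were 128 and 132 on the knockdown arrays against 149 and 143 on the control arrays, and medians 17.1 to 18.3. The number of arrays limits the precision.

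The scale was log2(signal + 16), with no further normalization. Probe sets whose mean over the 4 arrays was at or above the median, a signal of about 16.4, entered the tests, in all 22519 probe sets for 11804 genes. For each gene the brightest of its tested probe sets was used. Differences were fitted over all genes with limma 3.58.1 in R 4.3.3 (lmFit, eBayes with intensity trend, two-sided, Benjamini-Hochberg at 0.05) and checked on simulated data. Probe sets were named from the platform annotation where it gave 1 symbol. All 89 genes matched a RefSeq table. Left out were 4 probe sets that name a further gene and 6 genes that fit the name rule only through a RefSeq synonym, such as Carm1.

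The genes, the lists and the groups by mark were chosen with earlier results of these data known. Named genes were, per class, up to 6 called genes per direction with the largest changes and no overlap between groups, a set of core enzymes, genes whose probe sets were called in opposite directions, paralogs of these and at most 2 genes of each further chromatin list. Other genes were named after their values were seen, to account for each family. Same-numbered arrays did not deviate together (correlation 0.002), so numbers were not treated as pairs. Alternatives were other scalings (quantile, centring on the median of all or of the tested probe sets, 9 spike-in probe sets), pseudocounts of 1 and 64, no filter, the brightest 25%, no trend, a replicate block, other probe set choices, a threshold of 0.01, the 6 synonym genes, and leaving out each array. Python 3.11.15 with matplotlib 3.10.9 drew the figures.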

Additional observations from a re-analysis of the deposited data

How the results depend on the processing

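Of 28 called genes that were chosen for naming, 19 had the same direction and call under every alternative, and none of the 28 changed direction. With no intensity trend 36 probe sets were lower and 15 higher, and with no filter 40 and 10, beside 51 and 15 as reported. With quantile scaling 18 genes and 31 probe sets were higher, with 10 writers, 6 erasers and 2 readers among the genes. Median centring over tested probe sets gave 12 genes and 28 probe sets higher, with 7 writers and 4 erasers. With probe sets averaged per gene 6 writers were higher. Leaving out 1 array in turn gave 4 to 8 genes higher and 32 to 38 lower, and 9 to 15 probe sets higher and 41 to 49 lower. Writers ranged from 1 (without knockdown replicate 2) to 5 (without control replicate 1) higher and 16 to 19 lower. Erasers stayed at 2 higher with 13 to 15 lower, and readers at 1 higher with 3 to 4 lower. The 9 higher probe sets were found without knockdown replicate 1 and also without knockdown replicate 2. Uncalled genes that changed sign included Crebbp (-0.29) and Suz12 (0.36) with the mean of probe sets. Hdac2 (-0.09) and Suz12 (0.39) did so when _x_at and _s_at probe sets were left out. With quantile scaling Kat2a (0.05), Kat5 (0.06), Suz12 (0.07), Setd2 (0.01) and others did, and genes with a negative value went from 59 to 47 of 84. With spike-in scaling Hdac2 (-0.05) was among them. With the mean of probe sets Brd8 (-0.24), Eed (-0.14), Kdm5c (-0.23) and Setdb1 (-0.26) were no longer called. The cause of these changes was not tested. With a replicate block, 6 genes were higher and 35 lower, and 18 and 52 probe sets. At a threshold of 0.01, 5 genes were higher and 33 lower, and with the 6 synonym genes 6 and 37. Low signal limits Hdac8 and Kdm8, whose probe sets lay close to the floor.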
